A study of Mus musculus with 14 samples.

Results

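Cultured mouse hepatic stellate cells given UDP-glucose for 24 h were compared with control cultures kept for the same time, to see which transcripts differ when a ligand of the receptor P2Y14 is added. The comparison took the 6 libraries of these cultures, 3 control and 3 UDP-glucose, out of 14 samples in the series. Of 35171 gene rows in their table, the 12161 with a mean of at least 1 TPM over the 6 libraries were tested. TPM is a length-adjusted unit, a gene's share of all transcripts in a library. Both groups were primary stellate cells from liver labelled as free of damage, of the strain label Balbc, enriched on a gradient with no cell sort described. They were plated on plastic in 10% serum for 5 h and then moved to 0.1% serum, and the treated cells received 10 µM UDP-glucose in it. No genotype, age or pooling is given in the labels for either group. The sample titles of the treated cells say UDP, while their treatment label and description say UDP-glucose. Whether the libraries of a group stem from different animals or dishes is not stated. The p-values thus set the group difference against the spread among these libraries only, which may be technical variation.

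Stellate cells are the pericytes of the liver sinusoid. In the healthy liver they store vitamin A in lipid droplets, and on injury or on plastic they turn into contractile, matrix-making myofibroblasts. UDP-glucose is a nucleotide sugar that cells use to build glycogen and glycans. Released from cells, it acts on P2Y14, a receptor encoded by P2ry14 that couples to inhibitory G proteins. Myofibroblast genes are read by serum response factor (SRF), which joins its cofactors when actin filaments grow, by YAP with the TEAD factors, which answer to cell tension, and by the SMAD factors downstream of transforming growth factor beta (TGF-beta).

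The libraries were alike in their broad makeup. Between 12049 and 12434 genes reached 1 TPM in each, mitochondrial transcripts held 3.00% to 3.21% of TPM in control libraries and 2.80% to 4.41% with UDP-glucose, and the read depth is unknown because TPM keeps none. All 13 stellate cell markers were present, among them Dcn at 5818, 6334 and 6151 TPM in the controls and Lrat, which makes the retinyl esters of the droplets, at 75.97, 98.4 and 87.1 TPM. Many defining markers of other liver cells lay at or near 0, and some did not. The macrophage gene Vsig4 and the endothelial gene Stab2 were listed at 0 in all 6 libraries, Clec4f did not exceed 0.678 TPM, Alb did not exceed 3.33 TPM, and none of the 13 lymphocyte or 8 neutrophil markers had a mean of 1 TPM. Of the 12 hepatocyte markers 5 had a mean of at least 1 TPM. Apoa1, an apolipoprotein, was at 1.78, 1.703 and 15.4 TPM in the control libraries and 12.96, 13.8 and 14.4 TPM with UDP-glucose, so that 2 control libraries lay below the other 4 libraries. Apoc3 was at 0, 0 and 4.22 TPM in the control libraries and 4.49, 3.03 and 6.12 TPM with UDP-glucose, Trf, transferrin, at 48.02, 22.1 and 36.4 TPM in the control libraries and 35.7, 29.8 and 46.2 TPM with UDP-glucose, and Ass1, of the urea cycle, at 234, 228 and 244 TPM in the control libraries and 215, 201 and 206 TPM with UDP-glucose. Of the 13 sinusoidal endothelial markers, Egfl7 was at 49.6, 46.8 and 58.1 TPM in the control libraries and 40.2, 35.3 and 42.7 TPM with UDP-glucose and Pecam1 at 9.17, 5.81 and 7.12 TPM in the control libraries and 8.48, 4.69 and 12.1 TPM with UDP-glucose. None of these 6 genes was called by limma, and the part of other cells in the results was not tested. The summed level of 13 macrophage markers was 93.4, 79.4 and 87.6 TPM in the control libraries and 54.8, 59.5 and 55.4 TPM with UDP-glucose, most of it from Cd68. Because these are bulk libraries, fewer cells of a type and less RNA per cell cannot be told apart.

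Libraries of 1 group differed from each other along transcript length. The replicate numbers used here follow the order of the columns, since the labels give none. Libraries of the same number in the 2 groups are thus not known to be pairs. Across 12076 genes with an annotated exon length, the deviation of a library from its group mean had a rank correlation with that length of 0.409 in control replicate 2 and 0.355 in UDP-glucose replicate 2. It was −0.380 and −0.161 in control replicates 1 and 3, and −0.317 and −0.0683 in UDP-glucose replicates 1 and 3. Genes are not independent replicates, and these values are given as a description. In the 3019 longest genes, with at least 6698 exon bases, the median deviation was 0.18 in control replicate 2 and 0.12 in UDP-glucose replicate 2 on the log2 scale. The difference between the group means itself did not run with length, at a rank correlation of 0.00745 and a median log2 difference of −0.05 both in these genes and in the shortest ones, with at most 2583 exon bases. A fit with each library's length slope as a covariate was therefore added after the data were seen, and its values are named as such.

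Few genes differed between the groups. limma called 74 of 12161 genes at an adjusted p under 0.05 (0.609%), of which 52 were higher (0.428%) and 22 lower (0.181%). Among genes called higher the log2 fold change ran from 0.32 to 1.43, with a median of 0.66, and 11 of them at least doubled on this scale. Only 3 called genes fell by 1 or more on the log2 scale, and all of these are annotated as processed pseudogenes. The 52 genes called higher held 1.76% to 1.80% of TPM in the control libraries and 2.71% to 2.76% with UDP-glucose, and the 22 called lower held 0.864% to 0.892% and 0.645% to 0.649%. In all 74 the libraries of the 2 groups did not overlap, while over all genes tested 575 (4.73%) were apart and higher and 1404 (11.5%) apart and lower. At an unadjusted p under 0.05 the balance was the other way, with 416 genes higher and 804 lower, and over all genes tested the median log2 fold change was −0.05.

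**Figure D1:**
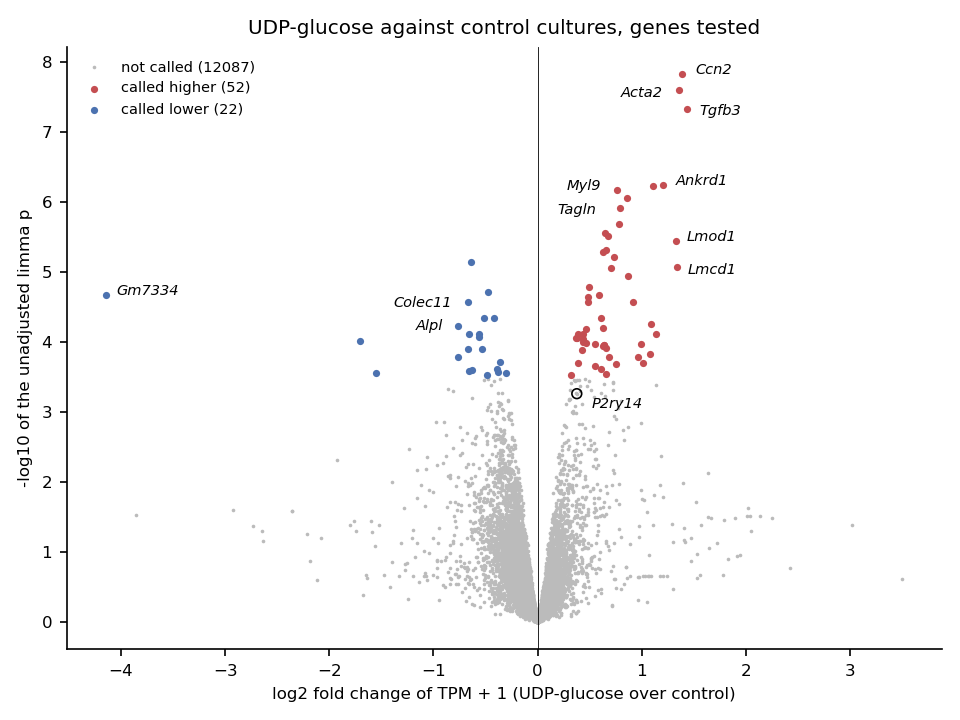
Each point is 1 of 12161 genes, with the log2 fold change of TPM + 1 (UDP-glucose over control) on the x axis and −log10 of the unadjusted limma p on the y axis. Red points are the 52 genes called higher and blue points the 22 called lower, and the ring marks P2ry14, which lies below the called genes.

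The number of calls changed with the library left out and with the way the values were processed. Leaving out control replicate 1 or 3 left 24 and 21 calls, and leaving out UDP-glucose replicate 1, 2 or 3 left 30, 20 and 24, while 64 were called without control replicate 2. Higher calls ranged from 17 to 46 over these 6 fits and lower calls from 0 to 18. Rescaling each library by the median of ratios gave 66 higher and 12 lower, so that 84.6% of calls were higher in place of 70.3%. The fit with the length covariate called 236 genes (1.94%), 126 higher (1.04%) and 110 lower (0.905%), so that 53.4% of calls were higher, and held all 52 and all 22 of the genes called without it. The 15 genes called in all 13 alternatives that do not use the length covariate were higher, and they include Acta2, Tagln, Myl9, Lmod1, Tpm2, Tpm4, Ccn2, Ankrd1, Tgfb3, Gadd45g, Lims2, Anxa1, Anxa3 and Lrrc27. No gene called lower was called in all 6 fits that leave out a library, and 16 of the 52 called higher were. Des, Vgll3, Ddah1, Efnb2 and Sytl2 were among the rises called in none of these 6 fits.

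**Figure D2:**
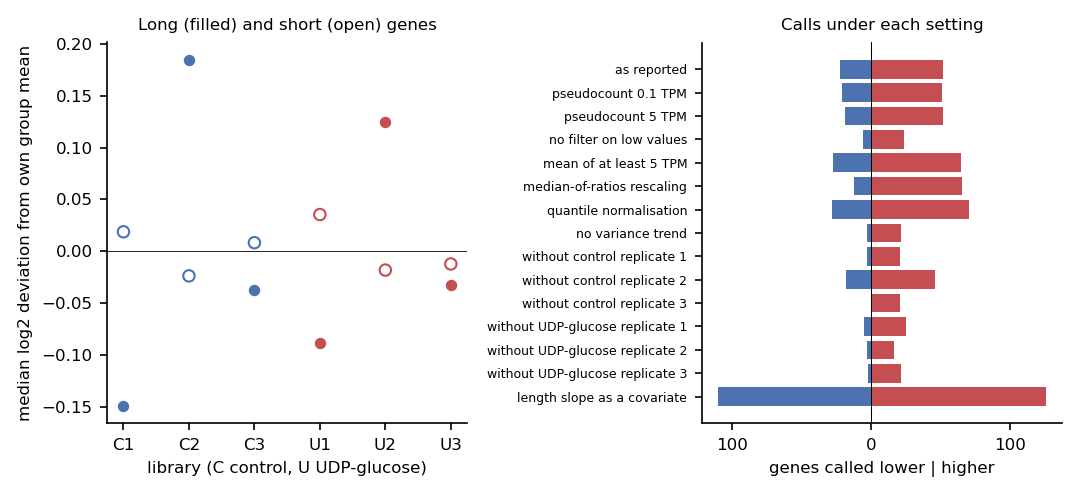
On the left, the median log2 deviation from the group mean is shown for each library in the longest genes (filled, at least 6698 exon bases) and the shortest (open, at most 2583), and control replicate 2 and UDP-glucose replicate 2 stand above 0 in the long genes. On the right, bars give the number of genes called higher (red) and lower (blue) under each setting, from 52 and 22 as reported to 126 and 110 with the length covariate.

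Contractile genes made up 12 of the 52 rises, more than any other list. Of 24 tested members of this list 12 rose, against 0.428% of all genes tested, and none fell. In 17 the groups were apart and higher, against 4.73% of all genes, and the median log2 fold change was 0.49 against −0.05 over all genes tested. In these same libraries the 13 stellate cell markers summed to 9959, 10479.9 and 10300.0 TPM in the control libraries and 7903, 8768 and 9139 TPM with UDP-glucose. Most of this sum was Dcn, at 6101 ± 262 against 4763 ± 425 TPM. Of the 13 markers 11 had a log2 fold change under 0, as did 63.9% of all genes tested, while Des and Reln lay above 0. The part of the marker sum in the contractile values was not tested. The contractile members summed to 10616, 10934 and 10812 TPM in the control libraries and 15722, 15891 and 15401 TPM with UDP-glucose. Acta2, the smooth muscle alpha-actin that defines myofibroblasts, was at 258, 258 and 276 TPM in the control libraries and 695, 646 and 699 TPM with UDP-glucose. The treated libraries all lay above 2 times the highest control library, and the log2 fold change was 1.36 (SE 0.06, limma adjusted p = 0.000154). Tagln, the actin-binding transgelin, of whose exon bases 67.9% overlap another gene, was at 1666, 1669 and 1659 TPM in the control libraries and 2996, 2936 and 2712 TPM with UDP-glucose, with control libraries close together and none near the treated ones (log2 0.79, adjusted p = 0.00183). Myl9, the light chain through which smooth muscle myosin is switched on, was at 510.2, 528 and 539 TPM in the control libraries and 883, 875 and 913 TPM with UDP-glucose, again without overlap (log2 0.76, adjusted p = 0.00136).

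Smooth muscle genes at low levels were among the rises. Lmod1, leiomodin, which starts actin filaments in smooth muscle, was at 11.3, 13.97 and 13.2 TPM in the control libraries and 32.5, 37.2 and 31.7 TPM with UDP-glucose (log2 1.33, adjusted p = 0.00365). Actg2, smooth muscle gamma-actin, was at 3.76, 3.54 and 4.04 TPM in the control libraries and 10.3, 8.30 and 8.94 TPM with UDP-glucose (log2 1.09, adjusted p = 0.0217). The other tested markers of vessel smooth muscle were not called. Myh11, smooth muscle myosin heavy chain, was 4.64 ± 1.41 against 10.1 ± 1.57 TPM and was not called (log2 0.99, adjusted p = 0.118), Cnn1 was at 0.553, 1.54 and 1.002 TPM in controls and 1.72, 1.18 and 0.426 TPM with UDP-glucose, Myocd did not exceed 0.123 TPM, and Pln and Rergl were listed at 0 in all 6 libraries. Of this list of 8 smooth muscle markers 4 were tested, and Actg2 and Lmod1 were called, against 0.428% called higher over all genes tested. All 4 are also on the contractile list, so both calls were already counted there. The sum of the 8 was 19.4, 25.5 and 22.6 TPM in the control libraries and 54.3, 59.3 and 51.01 TPM with UDP-glucose.

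The tropomyosins, which lie along actin filaments, rose in 3 of 4 genes. Tpm2 was at 178, 191 and 186 TPM in the control libraries and 299, 286 and 304 TPM with UDP-glucose (log2 0.68), Tpm4 at 735, 772 and 759.7 TPM in the control libraries and 1137, 1196 and 1209 TPM with UDP-glucose (log2 0.64) and Tpm1 at 1361, 1438 and 1401 TPM in the control libraries and 1942, 2030.2 and 1950.3 TPM with UDP-glucose (log2 0.50), with adjusted p of 0.00337, 0.00337 and 0.00993. None of these overlapped, whereas Tpm3 ranged over 161 to 196 TPM in controls and 124 to 196 TPM with UDP-glucose. The calponins Cnn3 and Cnn2 rose from means of 504 to 705 TPM and 433 to 586 TPM (log2 0.48 and 0.44). Ppp1r14a, an inhibitor of the phosphatase that turns myosin off, rose from 177 to 260.4 TPM (log2 0.56, adjusted p = 0.0269). Des, the intermediate filament protein desmin, was at 187, 189.5 and 193 TPM in the control libraries and 243, 245 and 251 TPM with UDP-glucose, a small rise with tight libraries (log2 0.38, SE 0.05, adjusted p = 0.0258). The call of Des was lost in each fit without 1 library. Members that were not called include Actn1, the actin crosslinker alpha-actinin, at 263 ± 38.7 against 435 ± 49.6 TPM (adjusted p = 0.0535), and the abundant light chain Myl6 at 3099 ± 178 against 3919 ± 166 TPM (adjusted p = 0.0917). Both passed in the fit with the length covariate (adjusted p = 0.00277 and 0.0159). In that fit 17 of the 24 contractile genes were called higher, against 1.04% of all genes tested. The number of contractile genes called was 6 without control replicate 1, control replicate 3, UDP-glucose replicate 2 or UDP-glucose replicate 3, 8 without UDP-glucose replicate 1 and 13 without control replicate 2.

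**Figure D3:**
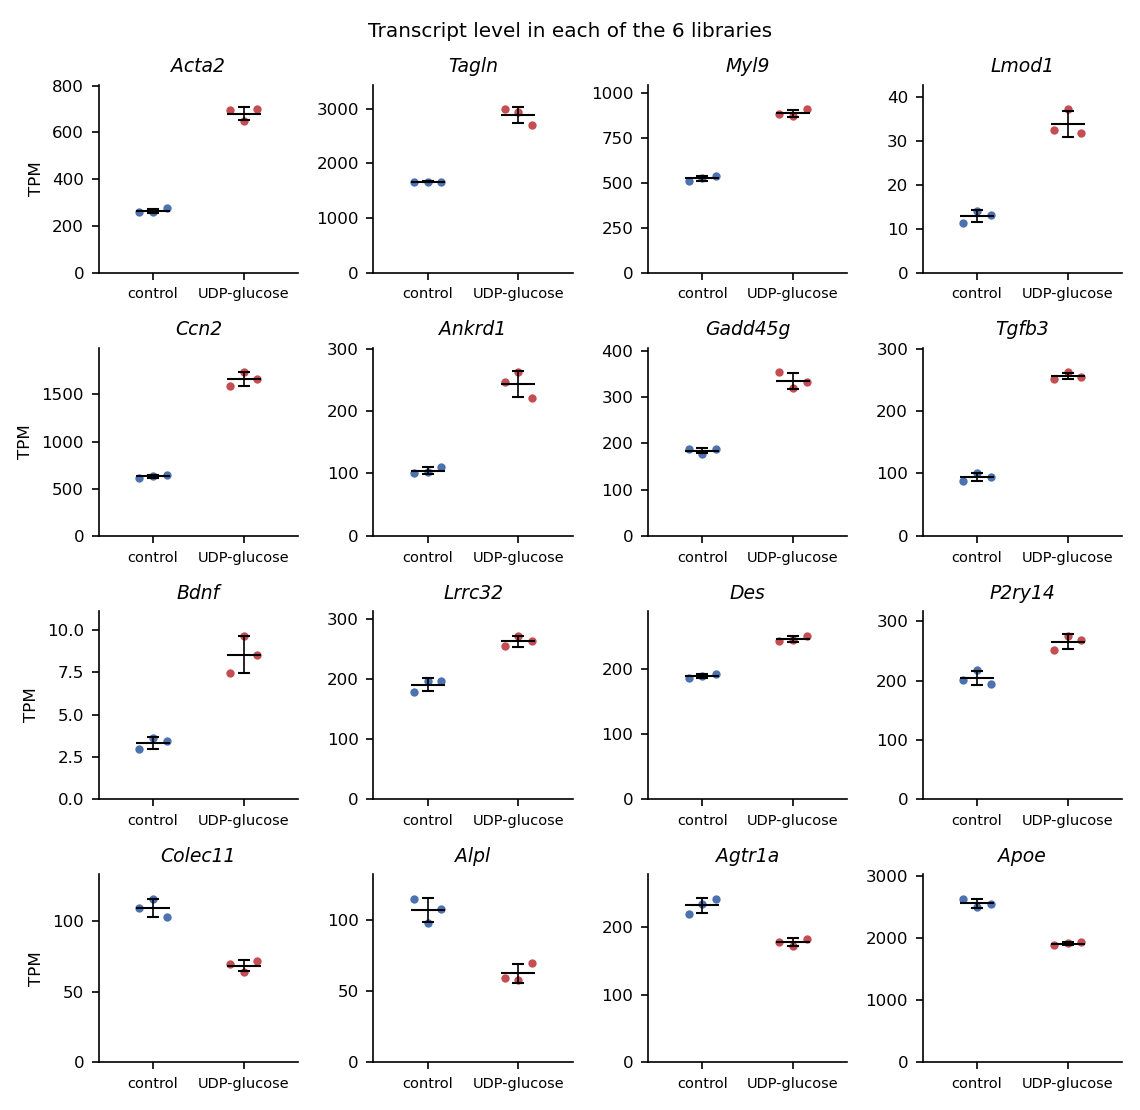
Points give the TPM of 16 genes in each of the 3 control (blue) and 3 UDP-glucose (red) libraries, on linear axes that start at 0, with the mean as a line and the SD as bars. In each panel the groups do not overlap, and P2ry14 is the 1 gene shown that was not called.

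The promoters of 3 of these genes are shown because the families of factors named above bind short known sequences near such genes. They come from RefSeq on GRCm38.p6 and run from 250 bases before to 50 bases after the annotated start, 5′ to 3′ on the gene's strand. Acta2 lies on the minus strand (chr19:34255324-34255623), and the capitals mark GGAATG, the TEAD motif, which begins at −146 from the start.
Acta2: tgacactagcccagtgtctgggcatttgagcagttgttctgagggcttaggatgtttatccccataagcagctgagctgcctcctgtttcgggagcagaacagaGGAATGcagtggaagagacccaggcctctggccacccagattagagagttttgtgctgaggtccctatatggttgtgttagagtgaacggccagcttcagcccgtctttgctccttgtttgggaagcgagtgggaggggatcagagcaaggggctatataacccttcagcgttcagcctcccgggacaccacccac
Myl9 lies on the plus strand (chr2:156775214-156775513), and Cnn2 on the plus strand (chr10:79988350-79988649). In both, capitals mark the CArG box, the site of SRF, which begins at −161 in Myl9 and at −56 in Cnn2. Myl9 and Cnn2 were chosen because they hold this box, in order of p among the called contractile genes that do. Its presence in both is thus set by the choice and is not a result. The CArG box was searched only in its strict form, CC, 6 letters of A or T, and GG. Looser forms were not marked, such as ccctatatgg and ccttgtttgg in Acta2. A sequence without a marked CArG box may thus still hold a site of SRF.
Myl9: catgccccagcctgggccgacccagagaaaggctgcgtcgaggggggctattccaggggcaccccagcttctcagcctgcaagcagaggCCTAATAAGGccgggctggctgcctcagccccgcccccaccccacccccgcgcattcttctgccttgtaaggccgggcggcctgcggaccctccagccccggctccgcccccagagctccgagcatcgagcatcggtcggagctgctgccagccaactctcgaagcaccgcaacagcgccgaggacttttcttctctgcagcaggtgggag
Cnn2: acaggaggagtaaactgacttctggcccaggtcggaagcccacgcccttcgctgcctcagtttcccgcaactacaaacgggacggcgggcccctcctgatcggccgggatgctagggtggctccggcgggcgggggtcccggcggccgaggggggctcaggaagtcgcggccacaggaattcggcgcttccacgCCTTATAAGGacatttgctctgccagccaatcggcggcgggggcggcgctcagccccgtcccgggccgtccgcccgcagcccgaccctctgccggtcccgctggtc
Searched on both strands, GGAATG was found in 14.3% of the 9177 tested genes with a promoter of this length in the RefSeq table, the CArG box in 1.54%, the AP-1 motif TGANTCA in 5.79% and the TATA box TATAAA in 8.31%. A match is a description of the letters and not a measured site. Promoters were matched for 39 of the 52 genes called higher (75%) and 14 of the 22 called lower (63.6%), under 80%, so a comparison of motif shares between the called genes and all genes is void. Ccn2 had no match in the table.

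Actb, Actg1, Csrp1 and Fhl2 rose among the genes of SRF and the actin skeleton. Of 25 tested these 4 rose (0.428% of all genes), none fell, 16 had groups apart and higher (4.73% of all genes), and the median log2 fold change was 0.30. Actb, cytoplasmic beta-actin, was at 3764, 3589 and 3698 TPM in the control libraries and 4942, 4968 and 5399.9 TPM with UDP-glucose (log2 0.47, adjusted p = 0.0235). Its partner Actg1 rose from 1844 to 2375 TPM (log2 0.37). Csrp1, a LIM protein on actin bundles, rose from 603 to 791 TPM (log2 0.39), and Fhl2, a LIM-only cofactor, was at 9.58, 11.98 and 11.04 TPM in the control libraries and 22.8, 25.7 and 19.4 TPM with UDP-glucose (log2 0.99, adjusted p = 0.0269).

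Srf itself lay at 42.8, 48.6 and 46.5 TPM in the control libraries and 65.1, 64.3 and 60.97 TPM with UDP-glucose, without overlap, and just missed the threshold (log2 0.46, limma adjusted p = 0.0533). Zyx, the focal adhesion protein zyxin, was 419.6 ± 15.2 against 539 ± 26.99 TPM (adjusted p = 0.0533), and Tmsb4x, which binds free actin, was 1210.4 ± 44.04 against 1692 ± 169.7 TPM (adjusted p = 0.0571). With the length covariate 12 of the 25 were called higher, against 1.04% of all genes in that fit. Srf, Zyx and Tmsb4x were among them (adjusted p = 0.0212, 0.0252 and 0.0349). Without control replicate 1 or 3 or UDP-glucose replicate 1 or 2 none of the list was called, and without UDP-glucose replicate 3 a single one was. After quantile normalisation Actb was no longer called, nor were Actb, Actg1 and Csrp1 after median-of-ratios rescaling, with the same direction under both. The other rises lost under median-of-ratios rescaling were Ppp1r14a, Tubb5, Tubb6, Ckb and 2310022B05Rik, and Timp3 was lost after quantile normalisation.

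Other called genes of the skeleton outside these lists were Cfl2, a cofilin that severs actin filaments (log2 0.61), Fblim1, migfilin (log2 0.63), Lims2, a partner of integrin-linked kinase (log2 0.78), Cdc42ep3 and Arhgap18 (log2 0.64 and 0.61), and the beta-tubulins Tubb6 and Tubb5 (log2 0.44 and 0.32). Lims2 was at 60.05, 57.9 and 57.1 TPM in the control libraries and 103, 97.5 and 102 TPM with UDP-glucose (SE 0.06, adjusted p = 0.00277). Of 24 tested integrin and focal adhesion genes Fblim1 alone was called, against 0.428% called higher over all genes tested, and the median of that list was 0.13. Groups were apart and higher in 5 of the 24 and apart and lower in 0, against 4.73% and 11.5% of all genes. The fit with the length covariate called 5 of them higher and 0 lower, against 1.04% and 0.905% of all genes.

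Of 21 tested YAP and TEAD targets 3 rose, none fell, and the median was 0.13. Over all genes tested 0.428% were called higher. Ccn2 and Ankrd1 were among the 11 genes that at least doubled. Ccn2, the matricellular connective tissue growth factor, with 23.2% of exon bases overlapping another gene, was at 614, 638 and 648 TPM in the control libraries and 1591, 1734 and 1663 TPM with UDP-glucose (log2 1.39, SE 0.05, adjusted p = 0.000154). Ankrd1, a stretch-responsive ankyrin repeat protein of muscle, was at 101, 102 and 110.4 TPM in the control libraries and 246, 262 and 220.4 TPM with UDP-glucose (log2 1.21, adjusted p = 0.00136). Ccn1, a matricellular relative of Ccn2, was at 448, 449.9 and 485 TPM in the control libraries and 704, 807 and 754 TPM with UDP-glucose (log2 0.71, adjusted p = 0.00597). In each of the 3 the lowest treated library stood above the highest control library. On GRCm38 Ccn2 lies on chromosome 10 from 24595442 to 24598683 and Ankrd1 on chromosome 19 from 36111961 to 36120099.

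The other 18 tested targets of YAP and TEAD were not called. Of the 21 targets 6 had groups apart and higher and 1 apart and lower, against 4.73% and 11.5% of all genes. The fit with the length covariate called 6 of the 21 higher and 0 lower, against 1.04% and 0.905% of all genes. Axl, a receptor kinase, was 207 ± 24.9 against 244 ± 21.3 TPM (log2 0.24, adjusted p = 0.497), and Amotl2, a feedback inhibitor of YAP, 129 ± 17.1 against 146 ± 9.19 TPM (log2 0.19, adjusted p = 0.597), both with overlapping libraries. F3, tissue factor, was 14.8 ± 0.9497 against 22.02 ± 1.34 TPM with groups apart (adjusted p = 0.0705, 0.0318 with the length covariate). Vgll3, a TEAD cofactor outside the list, was called from low levels of 2.93, 2.93 and 2.38 TPM in the control libraries and 5.99, 7.74 and 7.02 TPM with UDP-glucose (log2 1.08, adjusted p = 0.0319).

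Among 20 tested TGF-beta ligands, receptors and activators, 2 rose and none fell, against 0.428% called higher over all genes tested. The median was −0.08, and 14 of the 20 had a log2 fold change under 0. In the list 4 were apart and higher and 4 apart and lower, against 4.73% and 11.5% of all genes. Tgfb3, 1 of the 3 ligand genes, with 12.4% of exon bases overlapping another gene, had the largest rise of all called genes at 87.7, 101 and 94.8 TPM in the control libraries and 252, 262 and 254 TPM with UDP-glucose (log2 1.43, SE 0.07, adjusted p = 0.000187). Tgfb1 lay at 90.3 ± 2.799 against 81.3 ± 2.95 TPM and was not called (log2 −0.15, adjusted p = 0.477). Tgfb2 lay at 5.87, 7.67 and 6.57 TPM in the control libraries and 10.04, 13.6 and 12.5 TPM with UDP-glucose, apart but not called (log2 0.76, adjusted p = 0.11). Lrrc32, also named GARP, which holds latent TGF-beta at the cell surface, was at 178, 197 and 196 TPM in the control libraries and 254, 272 and 263 TPM with UDP-glucose (log2 0.46, adjusted p = 0.0269). Thbs1, thrombospondin, an activator of the latent form, was 47.2 ± 11.8 against 83.9 ± 14.7 TPM (log2 0.83, adjusted p = 0.159). Tgfb2 and Thbs1 passed with the length covariate (adjusted p = 0.0223 and 0.00628).

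Of 20 tested transcripts known to answer to TGF-beta 2 rose, against 0.428% called higher over all genes tested, none fell and the median was 0.01. Lmcd1, a LIM protein, was at 5.39, 6.79 and 7.24 TPM in the control libraries and 17.5, 18.05 and 17.9 TPM with UDP-glucose (log2 1.34, adjusted p = 0.00597). Tgfbi, named for its induction by the factor, was 143 ± 7.95 against 113 ± 3.53 TPM (log2 −0.34, adjusted p = 0.0907), and Postn, periostin, was 316 ± 23.2 against 360.3 ± 37.6 TPM (log2 0.19, adjusted p = 0.557). With the length covariate 3 of the 20 were called higher and 1, Tgfbi, lower (adjusted p = 0.0351). Over all genes that fit called 1.04% higher and 0.905% lower.

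In neighbouring pathways single genes were called higher, against 0.428% of all genes tested. Bmp10, a ligand of endothelial BMP receptors, was at 223, 266 and 250.1 TPM in the control libraries and 359, 402 and 384 TPM with UDP-glucose (log2 0.63, adjusted p = 0.0233), the 1 call among 18 tested BMP genes, while Gdf2, which encodes the related BMP9, was 445 ± 27.8 against 341 ± 16.01 TPM (log2 −0.38, adjusted p = 0.0648, and 0.0155 with the length covariate). Fstl3, a secreted binder of activin, rose from 16.8 to 26.6 TPM (log2 0.63). Bdnf, a neurotrophin, was at 2.94, 3.61 and 3.43 TPM in the control libraries and 7.44, 9.67 and 8.51 TPM with UDP-glucose (log2 1.14, adjusted p = 0.0244), the 1 call among 26 growth factors and receptors. The libraries of the 2 groups did not overlap in Bmp10, Fstl3 or Bdnf.

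Of 18 collagen chains tested 3 had groups apart and higher and 1 apart and lower, against 4.73% and 11.5% of all genes tested. None was called, and with 0.609% called over all genes a list of this size without a call is near the background. The same holds for every list described here with no call. Col1a1, the main chain of scar collagen, was at 103, 128 and 114 TPM in the control libraries and 119.5, 129 and 125 TPM with UDP-glucose, with overlap (log2 0.12, 95% interval −0.08 to 0.32, limma adjusted p = 0.713). Col3a1 was 598 ± 73.6 against 537 ± 23.5 TPM (log2 −0.15, 95% interval −0.37 to 0.07). Col4a1, of basement membrane, was 1218 ± 115 against 1569.9 ± 122 TPM with groups apart (log2 0.37, adjusted p = 0.187), and Col8a1, the largest of the 18 differences, was at 1.83, 3.46 and 2.43 TPM in the control libraries and 6.49, 6.87 and 6.799 TPM with UDP-glucose (log2 1.14, adjusted p = 0.0556). With the length covariate Col4a1, Col5a2 and Col8a1 passed (adjusted p = 0.0335, 0.0326 and 0.0224) and no collagen was lower. That fit called 1.04% of all genes higher and 0.905% lower.

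None of 32 tested glycoproteins and proteoglycans and none of 19 collagen-processing genes was called. Of 19 matrix proteases and inhibitors 2 rose, against 0.428% of all genes tested. Timp3, which blocks metalloproteinases and stays bound in the matrix, was at 531, 649.8 and 577 TPM in the control libraries and 814, 910.3 and 853 TPM with UDP-glucose (log2 0.56, adjusted p = 0.0414). Timp1, often used as a mark of stellate cell activation, was at 21.1, 14.6 and 18.2 TPM in the control libraries and 18.1, 17.8 and 17.4 TPM with UDP-glucose (log2 difference 0.00 at 2 decimals, 95% interval −0.32 to 0.31). Dcn, decorin, was 6101 ± 262 against 4763 ± 425 TPM with groups apart (log2 −0.36, adjusted p = 0.15, and 0.0303 with the length covariate). With that covariate 3 of the 32 glycoproteins and proteoglycans were called higher and 2 lower, Dcn among the latter. The shares over all genes in that fit were 1.04% and 0.905%.

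**Figure D4:**
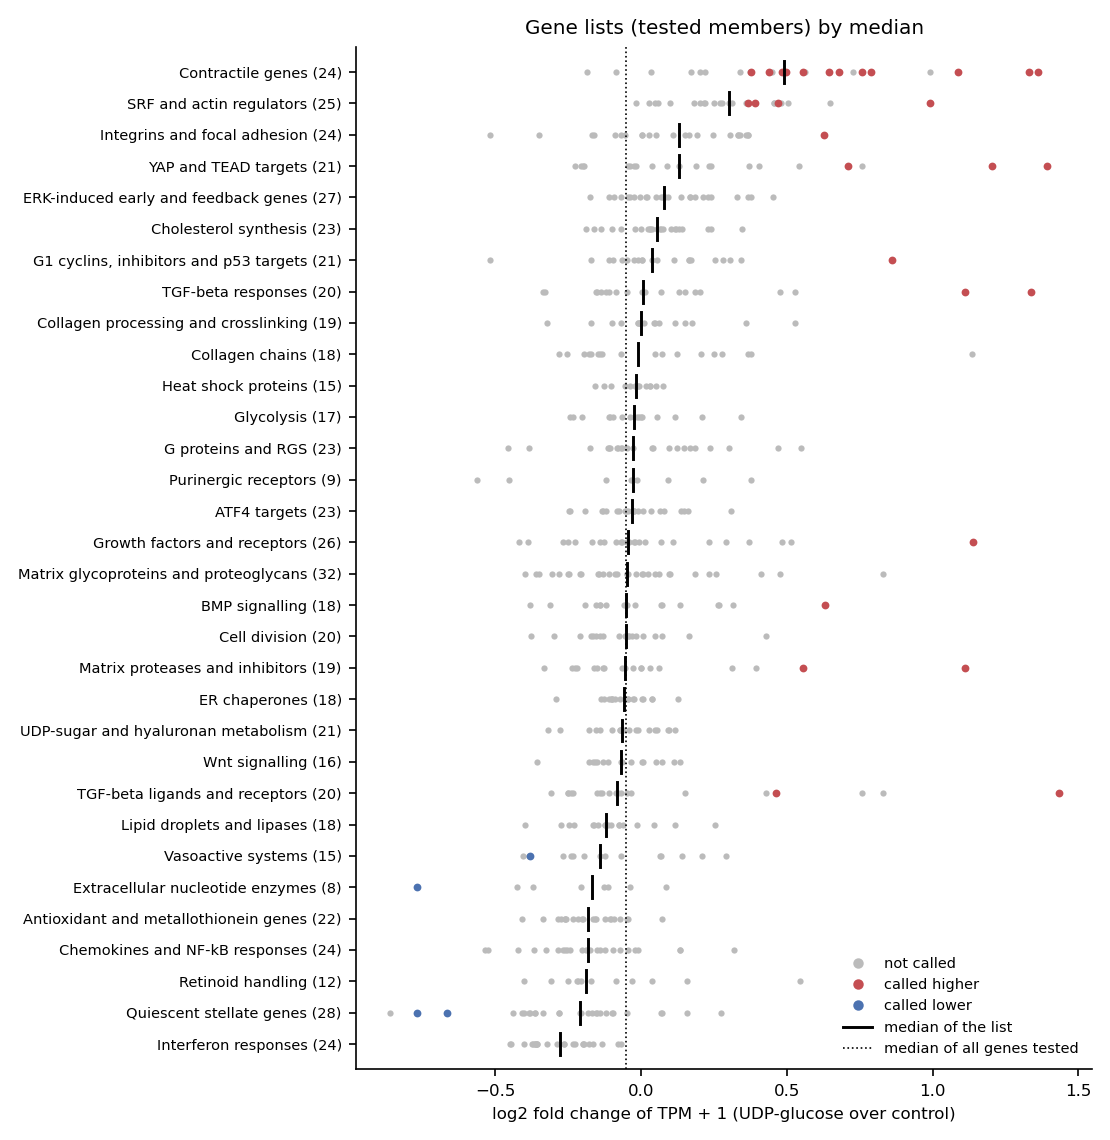
Each row is 1 of 32 gene lists with its number of tested members, and each point a member's log2 fold change of TPM + 1 (UDP-glucose over control). Red and blue points are called higher and lower, black ticks are list medians, and the dotted line is the median of all genes tested. The contractile list has the highest median of the 32 at 0.49 and the interferon list the lowest at −0.28.

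P2ry14, the gene of the receptor for UDP-glucose, was itself at 201, 218 and 194 TPM in the control libraries and 252, 276 and 269 TPM with UDP-glucose. The treated libraries all stood above the control libraries, and the gene missed the threshold (log2 0.38, SE 0.07, 95% interval 0.22 to 0.53, limma adjusted p = 0.0649). It was called after median-of-ratios rescaling (adjusted p = 0.0338) and with the length covariate (adjusted p = 0.0238), and its adjusted p over the other alternatives ran from 0.0504 to 0.346. P2ry14 lies on chromosome 3 of GRCm38, from 59113855 to 59153618 on the minus strand, and none of its exon bases overlap another gene's exons.

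None of the 9 tested purinergic receptors was called. P2rx4, an ATP-gated channel, was 117 ± 5.84 against 108 ± 7.52 TPM (log2 −0.12, adjusted p = 0.66), and P2ry6, a receptor for UDP, was at 1.697, 0.823 and 1.88 TPM in controls and 1.63, 1.398 and 1.72 TPM with UDP-glucose, with overlap. Among 8 tested enzymes that break down nucleotides outside cells, Alpl, tissue-nonspecific alkaline phosphatase, fell, against 0.181% called lower over all genes tested. Alpl was at 115, 98.1 and 108 TPM in the control libraries and 59.1, 58.2 and 70.1 TPM with UDP-glucose (log2 −0.77, adjusted p = 0.0224). None of 21 tested genes of UDP-sugar and hyaluronan metabolism and none of 23 G protein and RGS genes was called.

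Of 27 tested genes induced early by the ERK kinases 7 had groups apart and higher, against 4.73% of all genes, and none apart and lower, with no call and a median of 0.08. The immediate early genes Egr1 and Fos were 42.7 ± 3.94 against 44.8 ± 2.56 TPM and 9.98 ± 1.26 against 11.9 ± 1.47 TPM, with overlap. Feedback inhibitors were among those apart. Dusp6, a phosphatase of ERK, was 42.1 ± 2.29 against 58.03 ± 6.29 TPM (log2 0.45, adjusted p = 0.128, and 0.0707 with the length covariate). Spry1, sprouty, was 76.2 ± 4.49 against 98.5 ± 4.82 TPM (log2 0.37, adjusted p = 0.0952, and 0.0483 with the length covariate).

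**Figure D5:**
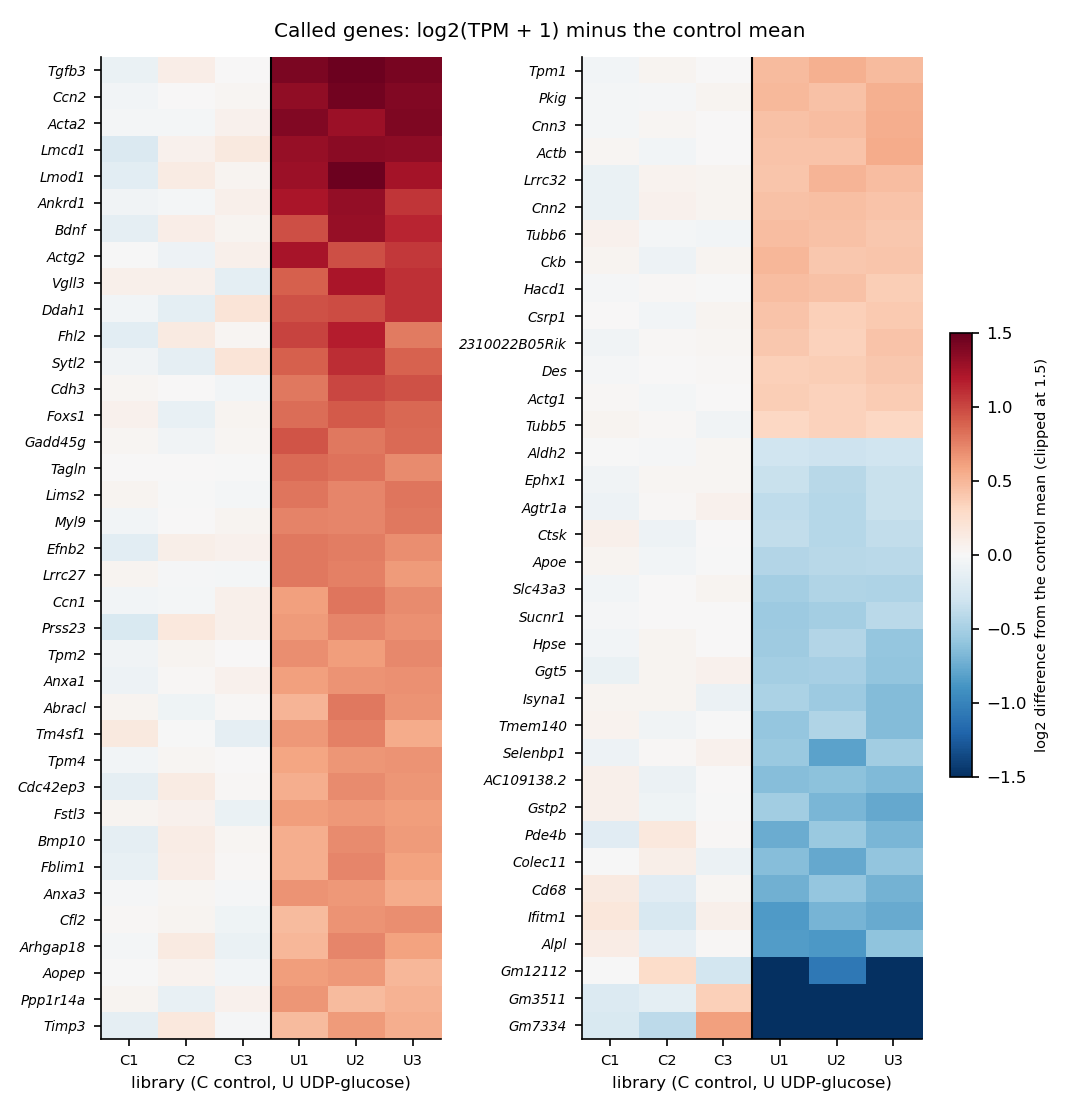
Rows are called genes in order of fold change and columns the 6 libraries. Colour gives log2(TPM + 1) minus the control mean, clipped at 1.5, so that the control columns scatter around 0 and each row turns red or blue in all 3 UDP-glucose columns.

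Further rises fell outside the lists or were single members of them, where 0.428% of all genes tested were called higher. Gadd45g, a growth arrest gene, was at 187, 178 and 187 TPM in the control libraries and 354, 320.3 and 332 TPM with UDP-glucose (log2 0.86, adjusted p = 0.00153), the 1 call among 21 cell cycle inhibitors and p53 targets, while none of 20 cell division genes was called. Anxa1 and Anxa3, annexins that bind membranes in the presence of calcium, rose from 676 to 1068 TPM and 195 to 302 TPM (log2 0.66 and 0.63). Foxs1, a forkhead factor of pericytes, was at 18.7, 16.5 and 18.3 TPM in the control libraries and 32.6, 34.6 and 33.04 TPM with UDP-glucose (log2 0.87, adjusted p = 0.00733). Cdh3, P-cadherin, and Efnb2, the membrane ligand ephrin-B2, rose from 9.53 to 18.9 TPM and 8.82 to 15.5 TPM (log2 0.92 and 0.75). Ddah1, which breaks down an inhibitor of nitric oxide synthase, was at 2.48, 2.24 and 3.09 TPM in the control libraries and 5.98, 6.09 and 6.65 TPM with UDP-glucose (log2 1.01, adjusted p = 0.0394).

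The remaining rises were smaller or in genes of less certain role here. They were Sytl2, a Rab27 effector (log2 0.96), Lrrc27 (0.73), the protease Prss23 (0.69), Abracl (0.66), Tm4sf1 (0.65), Aopep (0.59), Pkig, an inhibitor of protein kinase A (0.49), the creatine kinase Ckb (0.44), Hacd1, of very long chain fatty acid synthesis (0.42), and 2310022B05Rik (0.39).

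Colec11 and Alpl fell among genes of the quiescent stellate cell. Of 28 tested these 2 fell, against 0.181% called lower over all genes tested, and none rose. In the list 16 had groups apart and lower (11.5% over all genes) and 1 apart and higher, and the median was −0.21. Colec11, a collectin that binds sugars, was at 109, 116 and 103 TPM in the control libraries and 69.8, 64.2 and 72.2 TPM with UDP-glucose (log2 −0.67, adjusted p = 0.0123). Colec10, the partner collectin, was at 60.2, 86.9 and 73.4 TPM in the control libraries and 34.1, 43.3 and 41.9 TPM with UDP-glucose (log2 −0.86, adjusted p = 0.0623). Hand2, which encodes a transcription factor, was 131 ± 2.61 against 101 ± 4.22 TPM (log2 −0.36, adjusted p = 0.0533). Lrat was 87.2 ± 11.2 against 65.4 ± 3.06 TPM (log2 −0.40, adjusted p = 0.203, and 0.0533 with the length covariate).

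With the length covariate 7 of the 28 quiescence genes were called lower. Colec10, Hand2 and Gdf2 were among them (adjusted p = 0.00599, 0.0246 and 0.0155), and Tcf21 was higher (log2 0.27, adjusted p = 0.0348). Over all genes that fit called 0.905% lower and 1.04% higher. Reln, reelin, ranged over 871 to 994 TPM in controls and 886 to 1245 TPM with UDP-glucose, with overlap. The lower calls of this list were lost without control replicate 1 or 3 and without UDP-glucose replicate 1 or 2, and without UDP-glucose replicate 3 a single one was left. None of 12 tested retinoid genes and none of 18 lipid droplet genes was called.

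Receptors on the stellate surface were among the other falls, where 0.181% of all genes tested were called lower. Agtr1a, the type 1 angiotensin II receptor, was at 220.2, 235 and 242 TPM in the control libraries and 179, 172 and 183 TPM with UDP-glucose (log2 −0.38, adjusted p = 0.047), the 1 call among 15 vasoactive genes and one that was lost in each fit without 1 library. The endothelin receptor Ednra was 84.9 ± 6.84 against 63.9 ± 6.405 TPM (log2 −0.40, adjusted p = 0.173, and 0.0773 with the length covariate). Sucnr1, the succinate receptor, fell from 34.9 to 24.8 TPM (log2 −0.48, adjusted p = 0.0493). Pde4b, which breaks down cyclic AMP, was at 43.3, 54.3 and 49.3 TPM in the control libraries and 28.7, 32.9 and 29.9 TPM with UDP-glucose (log2 −0.66, adjusted p = 0.0464).

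After median-of-ratios rescaling 13 of the 22 falls were no longer called, with the same direction and an adjusted p of 0.05004 to 0.368. They are Agtr1a, Sucnr1, Alpl, Apoe, Ctsk, Cd68, Aldh2, Ephx1, Gstp2, Ifitm1, Selenbp1, Isyna1 and AC109138.2. Sucnr1, Cd68 and Selenbp1 were also lost after quantile normalisation.

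Apoe, the lipid carrier apolipoprotein E, was at 2635, 2495 and 2548 TPM in the control libraries and 1887, 1915 and 1937 TPM with UDP-glucose (log2 −0.42, adjusted p = 0.0185). Hpse, heparanase, was at 148, 156 and 152 TPM in the control libraries and 104, 112 and 102 TPM with UDP-glucose (log2 −0.52, adjusted p = 0.0185), and Ctsk, the collagen-cleaving cathepsin K, fell from 218 to 166 TPM (log2 −0.39). Cd68, a lysosomal membrane protein also used as a macrophage marker, was at 85.2, 68.9 and 78.8 TPM in the control libraries and 46.6, 51.5 and 47.1 TPM with UDP-glucose (log2 −0.67, adjusted p = 0.0284) in libraries where 10 of the 13 macrophage markers had a mean under 1 TPM. Slc43a3, a carrier of purine bases, was at 509.6, 525 and 539 TPM in the control libraries and 369, 383 and 379 TPM with UDP-glucose (log2 −0.47, adjusted p = 0.0112). Aldh2, which oxidises aldehydes, Ephx1, an epoxide hydrolase, and Gstp2, a glutathione transferase, fell by 0.30, 0.36 and 0.66 on the log2 scale.

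Ifitm1, an interferon-induced membrane protein, was at 171, 128 and 161 TPM in the control libraries and 84.1, 94.1 and 90.1 TPM with UDP-glucose (log2 −0.77, adjusted p = 0.0342). The smaller falls were Selenbp1 (log2 −0.63), Tmem140 (−0.56), Isyna1, of inositol synthesis (−0.56), and Ggt5, a gamma-glutamyltransferase (−0.53). The row named AC109138.2, whose symbol was not found in the annotation used here, was at 1235, 1098 and 1177 TPM in the control libraries and 752, 762 and 741 TPM with UDP-glucose (log2 −0.64, adjusted p = 0.00553).

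Interferon and antioxidant genes lay lower without a call. All 24 tested interferon response genes had a log2 fold change under 0, as did 63.9% of all genes tested. In the list 9 were apart and lower, against 11.5% of all genes, none was called, and the median was −0.28 against −0.05. Their summed level was 1897, 1494 and 1488 TPM in the control libraries and 1419, 1239 and 1385 TPM with UDP-glucose, and control replicate 1 was the highest of the 6. Isg15, a ubiquitin-like protein, was 124 ± 40.5 against 94.2 ± 13.8 TPM (log2 −0.36, adjusted p = 0.653). Of 22 antioxidant and metallothionein genes 21 were under 0 and 12 apart and lower, against the same 63.9% and 11.5%, none was called, and the median was −0.18. Hmox1, heme oxygenase, was at 1979, 1884 and 1963 TPM in the control libraries and 1654, 1569.7 and 1647 TPM with UDP-glucose (log2 −0.26, adjusted p = 0.11), and Srxn1, sulfiredoxin, was 355 ± 9.75 against 291 ± 6.84 TPM (adjusted p = 0.0754). With the length covariate both of these were called (adjusted p = 0.0285 and 0.0337), as were 1.94% of all genes. None of the 24 listed interferon genes was called in that fit, while Ifitm1, which is not on that list, was (adjusted p = 0.0224).

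The called genes were abundant, short and in part hard to separate from other gene models. Their median level was 162 TPM against 23.9 TPM for all genes tested. Their median exon length was 3037 bases for the higher and 2138 for the lower calls, against 4296 over the genes tested. Whether transcript length bears on the calls was not tested beyond the covariate fit. The 3 pseudogenes share sequence, in whole or in part, with an expressed gene. Gm7334 was at 20.3, 17.96 and 37.05 TPM in controls and 1.805, 0 and 0 TPM with UDP-glucose, and all of its 31-base words occur in other transcripts, foremost Btg3, which was at 69.3, 81.1 and 64.4 against 91.3, 117 and 96.8 TPM. Gm12112 was at 43.6, 52.8 and 36.01 TPM in the control libraries and 14.2, 20.2 and 9.88 TPM with UDP-glucose and shares all its words, foremost with Tcea1. Gm3511 was at 1.82, 1.95 and 3.16 TPM in controls and listed at 0 with UDP-glucose, and shares 64.4% of its words, foremost with Rps28.

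The strand setting was not given in the sources used here, so reads of overlapping genes cannot be told apart. Of 72 called genes found in the annotation, 21 had over 10% of exon bases within another gene or over 10% of 31-base words in other transcripts, and their values are uncertain to that extent. The overlap was 67.9% of exon bases in Tagln, 47.3% in Fstl3, 37.04% in Tmem140, 23.2% in Ccn2, 22.9% in Prss23, 22.4% in Abracl, 21.3% in Timp3, 17.7% in Cnn3, 14.4% in Bdnf and 12.4% in Tgfb3. Shared words reached 61.1% in Selenbp1, with Selenbp2 first, 60.3% in Gstp2, with Gstp1 first, 40.2% in Actg1, 33.9% in Hacd1, 23.6% in Actb, 19.97% in Tpm4, 17.5% in Ckb and 11.6% in Ifitm1. Syn3, which shares words with Timp3, did not exceed 0.348 TPM, and Prss57, which shares words with Fstl3, was listed at 0 in all 6 libraries.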

How the data were processed

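Bulk RNA of 3 control and 3 UDP-glucose cultures was read from 1 table of TPM per gene, which the authors deposited. Per the submitters' processing notes, bcl2fastq 2.19 and kallisto 0.44.0 were among the tools, and GRCm38 among the builds. The strand setting was not given in the sources used here. Of 35197 rows, 26 named as calendar dates (at most 0.152% of TPM) were left out. Tested were genes averaging at least 1 TPM. On log2(TPM + 1), limma 3.58.1 (R 4.3.3) was run two-sided, with moderated variances that follow the mean, and called at a Benjamini-Hochberg adjusted p under 0.05. Fold changes on this scale understate the change of low genes. No count model was fitted. Exon lengths, overlaps and shared 31-base words come from GENCODE M21. The fit was also run on simulated data without the length-linked differences between libraries, so that run cannot show how the fit handles them.

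The comparison, the 32 gene lists and 12 marker lists were chosen with earlier results of these data known. Named were P2ry14, Acta2, Col1a1, Lrat, Timp1 and Des, the 15 largest rises and falls (5 TPM or more in a group, no predicted models), called and abundant members of lists, and other called genes, except that some items are not reported here. Further uncalled genes were named after their values were seen. Alternatives were pseudocounts of 0.1 and 5 TPM, no filter and 5 TPM, median-of-ratios and quantile scaling, no variance trend, leaving out each library, and, added later, the length covariate (the slope of log2 values on log2 exon length per library).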

Additional observations from a re-analysis of the deposited data

How the results depend on the processing

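All 74 called genes kept their direction wherever an alternative could test them. With no filter on low values 30 genes were called (24 higher, 6 lower), and without the variance trend 25 (22 higher, 3 lower). After median-of-ratios rescaling 12 were lower, 9 of them among the 22, and 66 were higher, 44 of them among the 52. Leaving out 1 library gave 20 to 64 calls, 17 to 46 higher and 0 to 18 lower, with fewer samples in each fit. The length covariate, added after the data were seen, gave 236 calls, 126 higher and 110 lower. The cause of these changes was not tested. Both pseudocounts, the 5 TPM filter and quantile normalisation kept the count of calls within 1.5 times. Of the values of uncalled genes, those of Timp1 changed sign, to 0.046 after median-of-ratios rescaling, 0.063 after quantile normalisation, 0.017 with the length covariate and −0.13 to 0.12 over the fits without 1 library. No paired analysis was possible because the labels give the cultures no replicate numbers. The unknown depth leaves no floor for genes listed at 0.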
